A study of Sus scrofa with 35 samples.

Results

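Blood of heat-stressed F1 pigs was set against that of heat-stressed Large White (LW) pigs. F1 pigs were the cross of LW, a commercial European breed, with Creole (CR), a local Caribbean breed, so cross-bred animals were compared with their LW parental breed under the same heat. The samples were chosen by their titles and numbered 6 F1 pigs and 6 LW pigs under heat stress (HS), 12 of the 35 pigs of the series. The labels gave 30 °C for these pigs, whereas the protocol text gave 32 °C for 5 d, and the methods also allowed for 1 day less. The other pigs were 6 F1 and 6 LW pigs under thermoneutral (TN) conditions at 24 °C, 6 CR HS pigs and 5 CR TN pigs. All were castrated male growing pigs, which according to the methods entered the climatic room when 11 weeks old, before an adaptation period, and whole blood was drawn into tubes that stabilise RNA. Every pig gave 1 one-colour array, so a value of a pig holds the variation of animal, RNA and array together. According to the methods, a pen held pigs of 1 breed, and littermates were divided between pens and climates. F1 and LW pigs therefore never shared a pen or a litter, so breed cannot be told apart from pen and litter, and the TN pigs of a breed were relatives of its HS pigs rather than an unrelated sample. The labels do not tie pigs to pens or litters. P-values then treat littermates as independent.

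Whole blood is a mixture. Immature red cells carry abundant messenger RNA for globins and haem enzymes, platelets carry RNA left by megakaryocytes, and white cells contribute transcripts of antigen presentation, antiviral defence and granules. The major histocompatibility complex, called SLA in pigs, encodes the class I chains that present peptides on nearly all cells and the class II chains of antigen-presenting cells, and it is among the most variable regions of a mammalian genome. Mitochondrial DNA is inherited from the dam and encodes subunits of the respiratory chain. A short probe of an array reads both how much of a transcript is present and how well the animal's own sequence matches the probe.

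The mixture was checked against defining markers. HBB and ALAS2 of red cells, ITGA2B of platelets, S100A8 and CD14 of myeloid cells, CD3E of T cells, CD79A and MS4A1 of B cells and NKG7 of cytotoxic cells were well above background on all 12 arrays. PF4 and CSF3R had no probe under those symbols among the expressed probes. On average 65.1% ± 1.6 of probes were well above background in F1 HS pigs and 63.0% ± 1.9 in LW HS pigs (SD, n = 6 each). The median correlation of an array with those of its own group was 0.971 to 0.989. The arrays were not equally precise. The weights that limma estimated for them ranged from 0.53 (F1 HS replicate 4) to 2.60 (F1 HS replicate 3). In bulk RNA of this kind, fewer cells of a type and less RNA per cell cannot be told apart.

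Between F1 HS and LW HS pigs, 3 of 39072 probes (0.00768%) were detected as differentially expressed by limma at an adjusted p under 0.05. A probe without a gene name and a probe of KIAA1462, an endothelial junction gene, were up-regulated in F1 pigs. A probe of MTRF1, a release factor of mitochondrial translation, was down-regulated (0.00512% of all probes passed as higher and 0.00256% as lower). Without adjustment 3216 probes (8.23%) had a p under 0.05, 1706 of them higher (4.37%) and 1510 lower (3.86%) in F1 pigs. Differences were small in general. The median absolute log2 difference was 0.13 with a median standard error (SE) of 0.15, and 295 probes (0.755%) differed by 2-fold or more. The values of all 6 F1 pigs lay outside those of the 6 LW pigs at 192 probes (0.491%), 91 above and 101 below. When probes were averaged by gene, 1 of 11418 genes (0.00876%) was detected, KIAA1462.

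The probe sequences of the detected transcripts are shown because the 3 MTRF1 probes that lay apart between breeds read nearly the same bases. They are printed in the order given in the scanner files, and the capitals mark the run shared by the MTRF1 probes.
MTRF1 A_72_P191081: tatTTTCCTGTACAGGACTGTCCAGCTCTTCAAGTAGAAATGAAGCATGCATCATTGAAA
MTRF1 O7914: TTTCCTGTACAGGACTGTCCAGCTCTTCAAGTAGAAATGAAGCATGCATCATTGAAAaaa
MTRF1 A_72_P547886: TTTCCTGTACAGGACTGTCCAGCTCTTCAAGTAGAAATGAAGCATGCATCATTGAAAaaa
KIAA1462 O13831: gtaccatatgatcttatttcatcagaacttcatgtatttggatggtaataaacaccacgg
OTTSUST00000001126: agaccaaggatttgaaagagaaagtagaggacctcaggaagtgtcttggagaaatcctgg

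The unnamed probe OTTSUST00000001126 had log2 values of 5.40, 6.15 and 6.23 (lowest, median and highest) in F1 HS pigs and 4.82, 5.17 and 5.24 in LW HS pigs, without overlap. The signal was well above background on all 6 F1 HS arrays and on 0 LW HS arrays, so its level in LW HS pigs is only a bound and F1 pigs were at least 1.78-fold higher. The fitted log2 difference was 0.90 ± 0.14 (SE, adjusted p = 0.0130 by limma). On the 4 slides that held both groups, the difference was 0.63, 0.71, 1.22 and 1.08. In TN pigs it was 0.27, with 3 of 6 F1 arrays and 1 of 6 LW arrays well above background.

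The KIAA1462 probe O13831 read 5.53, 6.11 and 6.40 in F1 HS pigs and 5.24, 5.29 and 5.67 in LW HS pigs. In 5 of 6 F1 pigs it lay above every LW pig, and the lowest F1 pig fell within the LW range. The log2 difference was 0.68 ± 0.12 (SE, adjusted p = 0.0239 by limma), and it ranged from 0.19 to 1.14 within slides. The array carries the same 60 bases a second time as A_72_P401863, where the difference was 0.61 (adjusted p = 0.109 by limma). Both copies were well above background on only 2 of 6 LW HS arrays, and in TN pigs they differed by 0.19 and 0.23.

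MTRF1 at A_72_P191081 read 5.71, 6.31 and 6.67 in F1 HS pigs against 6.88, 7.03 and 7.10 in LW HS pigs. Every F1 pig lay below every LW pig, and the LW pigs were close together with an SD of 0.08 against 0.38 in F1 pigs (n = 6 each). The log2 difference was -0.83 ± 0.14 (SE, adjusted p = 0.0207 by limma), and within slides it ranged from -1.36 to -0.37. O7914 and A_72_P547886, which are copies of each other and share 57 bases with A_72_P191081, also did not overlap between groups (-0.68 and -0.71), but did not pass the threshold (adjusted p = 0.280 and 0.529 by limma). The other 3 MTRF1 probes read other parts of the transcript and gave 0.32, -0.20 and -0.06 with overlapping groups. The 6 probes of MTRF1 therefore did not share a direction.

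None of the 3 detections held in each setting. With slide as a block their adjusted p was 0.0853 for OTTSUST00000001126, 0.145 for MTRF1 and 0.170 for KIAA1462, and with only the 12 HS arrays in the fit it was 0.262 to 0.323. When 1 pig at a time was left out, OTTSUST00000001126 passed in 9 of 12 fits, MTRF1 in 6 and KIAA1462 in 4, always with the same direction.

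In TN pigs, the same contrast of F1 and LW pigs gave 0 of 39072 probes by limma, with 6702 at an unadjusted p under 0.05 (17.2%; 10.3% higher and 6.9% lower). The interaction, which tests whether the breed difference changed between climates, also gave 0 probes (8874 unadjusted, 22.7%). In this fit the breed difference was thus not shown to change with climate at any probe, although with array weights 3902 probes passed the interaction. Directions in both climates are given as a description. The TN pigs did not enter the HS difference of a probe, but they entered the shared estimate of spread behind the p that chose it. Of the 1706 probes that were higher in F1 HS pigs at the unadjusted level, 546 (32.0%) had a positive difference in TN pigs, against 43.3% of all probes, and 51 (2.99%) were also higher there at that level. Of the 1510 probes that were lower, 290 (19.2%) were also negative in TN pigs, against 56.7% of all probes, and 62 (4.11%) were also lower there at that level. The median of the erythroid list moved with this pattern, at -0.40 in HS and 0.23 in TN pigs. With the erythroid mean as a covariate, the probes at an unadjusted p under 0.05 by limma numbered 4309 for the interaction, 4453 in TN and 2564 in HS pigs. The part of the erythroid list in the result was not tested.

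Among the 12 transcripts with the smallest p in the higher direction, DHRS7, a short-chain dehydrogenase, had positive differences in both climates at every probe. The probe A_72_P653731 read 5.50, 6.04 and 6.26 in F1 HS pigs and 5.19, 5.42 and 5.55 in LW HS pigs, with 5 of 6 F1 pigs above every LW pig (log2 difference 0.58 ± 0.12, SE, adjusted p = 0.180 by limma). All 6 DHRS7 probes were positive under HS, from 0.42 to 0.61, and positive in TN pigs, from 0.28 to 0.52. Each was past an unadjusted p of 0.05 in both climates, and none passed the adjusted threshold in either. Of these probes 2 pairs share 20 and 32 bases, so they are not wholly separate readings.

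Other transcripts near the top did not pass either, and their differences in TN pigs varied. ALG14, a subunit of the enzyme that starts N-linked glycan chains, read 7.84, 8.47 and 8.78 in F1 HS pigs against 6.57, 7.05 and 8.11 in LW HS pigs (log2 difference 1.21 ± 0.26, SE, adjusted p = 0.249 by limma), and differed by 0.05 in TN pigs. UTP18 of ribosome biogenesis differed by 0.91 in HS and -0.07 in TN pigs. CNNM4, a magnesium transporter, had F1 HS pigs between 7.16 and 7.65 and LW HS pigs between 6.82 and 7.10. These groups did not overlap under heat (0.45), and in TN pigs the difference was -0.24. The groups also did not overlap at PHLDB1 O9044 (0.48) and SPARCL1 A_72_P668001 (0.47). This SPARCL1 probe was well above background on 0 LW HS arrays, so F1 pigs were at least 1.25-fold higher there. SPARCL1 has other probes on the array, and another probe shares 57 bases with that of PHLDB1. Their values are not given here, so these results hold for the named probes only. VMO1 differed by 1.30 in HS and 0.83 in TN pigs. It was highest in CR pigs, with a median of 7.90 in CR HS pigs against 6.91 in F1 HS and 5.51 in LW HS pigs, so the F1 median lay between those of the parental breeds.

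In the lower direction, APLP2, a relative of the amyloid precursor protein, read 6.57, 6.87 and 7.07 in F1 HS pigs and 7.29, 7.41 and 7.60 in LW HS pigs at A_72_P427111. The groups did not overlap (log2 difference -0.61 ± 0.13, SE, adjusted p = 0.249 by limma), and the other APLP2 probe gave -0.54. In TN pigs the values were -0.03 and 0.14. RUNDC3A differed by -0.87 in HS and 0.05 in TN pigs, PPP1R9B by -0.49 and 0.09 (0.09 and 0.05 at its other probe), NUDT9 by -0.48 and 0.19 (-0.87 and -1.24 at its other probe), and SLCO2A1, a prostaglandin transporter, by -0.48 and 0.01. XPNPEP2, an aminopeptidase, had F1 HS pigs between 5.44 and 5.99 and LW HS pigs between 6.01 and 6.50 without overlap (-0.45), whereas in TN pigs it differed by 0.33. CLCA1 differed by -0.51 and -0.10 at A_72_P146816. Other probes of XPNPEP2 and CLCA1, among them a copy of the same 60 bases of CLCA1, are not given here. DCPS, the scavenger decapping enzyme, gave -0.98 at one probe and 0.33 at the other, so its probes went opposite ways.

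OAZ3, an inhibitor of polyamine synthesis, was low in F1 pigs in both climates. A_72_P437459 read 5.44, 5.85 and 8.13 in F1 HS pigs against 5.79, 8.19 and 8.49 in LW HS pigs. Most F1 pigs were low and most LW pigs high, but each group held pigs at the other's level. The log2 difference was -1.55 ± 0.42 (SE, adjusted p = 0.496 by limma) in HS pigs and -1.52 in TN pigs, and the copy of the same 60 bases gave -1.57 and -1.48. The third OAZ3 probe gave -0.61 and -0.36. CR HS pigs lay between 5.29 and 5.99, at the low level of the F1 pigs. On the slides that held both groups the HS difference was -2.40, -1.56, -0.06 and 0.11, so among these it was large only on the first 2. F1 HS replicate 6 was on a slide without LW HS pigs and enters none of these values. LOC100517007 had a like pattern as values, at -1.16 in HS and -1.17 in TN pigs, and was well above background on 1 of 6 arrays in both F1 groups against 5 of 6 in both LW groups.

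ENSSSCT00000002722, which the files describe as a predicted transcript of no known product, was singled out after its values were seen because so many of its probes stood together. All 14 of its probes were positive in HS pigs, from 0.13 to 0.96 with a median of 0.76. At 9 of them the groups did not overlap (0.233% of all probes did so in this direction), and 12 had an unadjusted p under 0.05. The probe A_72_P626398 read 9.32, 9.73 and 10.099 in F1 HS pigs and 8.22, 8.74 and 9.20 in LW HS pigs (log2 difference 0.96 ± 0.21, SE, adjusted p = 0.249 by limma, the smallest of the 14). In TN pigs the median of the 14 probes was 0.01. CR HS pigs lay between 9.01 and 9.59 at this probe and overlapped the ranges of both other groups. Among the 14 probes 8 pairs share 24 to 48 bases and so in part repeat each other.
ENSSSCT00000002722 A_72_P626398: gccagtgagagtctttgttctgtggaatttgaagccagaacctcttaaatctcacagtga

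**Figure D1:**
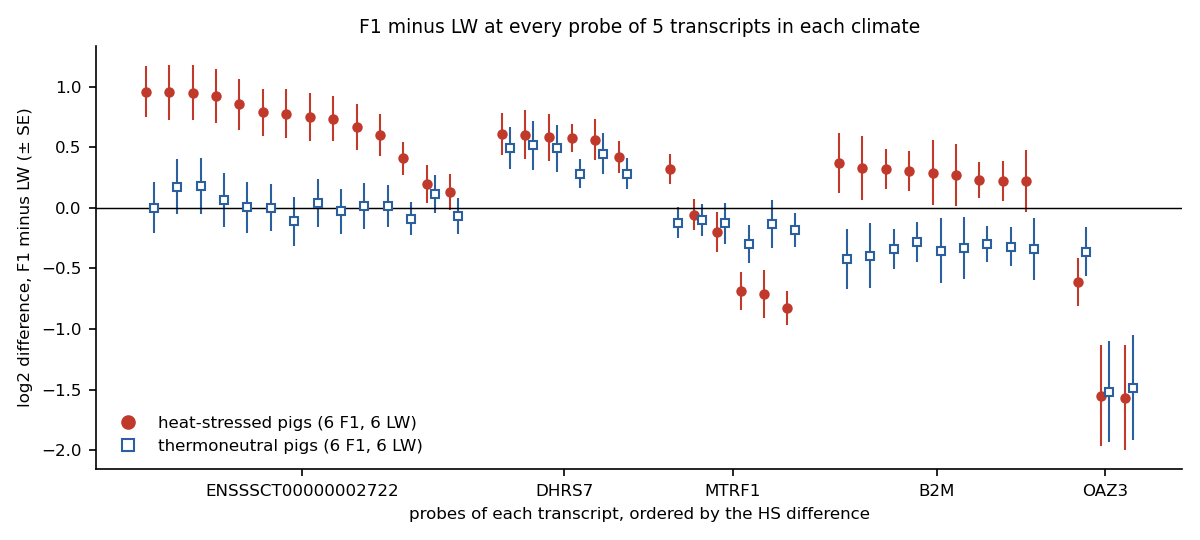
Log2 difference of F1 minus LW pigs at every probe of 5 transcripts, in HS pigs (filled circles) and TN pigs (open squares), with whiskers of ± 1 SE; probes of a transcript are ordered by the HS difference. DHRS7 is positive and OAZ3 negative in both climates, ENSSSCT00000002722 is positive in HS with a TN median of 0.01, B2M is positive in HS and negative in TN at all 9 probes, and the 6 MTRF1 probes differ among themselves.

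Transcripts of the mitochondrial genome were higher in F1 than in LW pigs under heat as values, though 0 of their 128 probes were detected by limma (45 higher and 1 lower at an unadjusted p under 0.05). In HS pigs all but 5 of the 128 probes had a positive difference (96.1%, against 52.2% of all probes), with a median of 0.46. In TN pigs 69 (53.9%) were positive, with a median of 0.03. Many of these probes share sequence, so their counts are not separate observations. The mean of these transcripts by pig was 13.68 to 14.09 in F1 HS pigs and 13.04 to 13.89 in LW HS pigs (difference 0.48, two-sided exact permutation p = 0.0325, adjusted p = 0.214 over 12 array measures). The LW HS pigs were split: replicates 2 and 3 read 13.79 and 13.89, within the F1 range, and the others read 13.04 to 13.21. By gene, COX2 of complex IV read 14.28, 14.43 and 14.55 in F1 HS pigs against 12.63, 12.97 and 14.40 in LW HS pigs, a difference of 1.101 ± 0.35 (SE, adjusted p = 0.584 by limma). ND2 and ND1 of complex I differed by 0.95 and 0.67, CYTB of complex III by 0.64, COX1 and COX3 of complex IV by 0.68 and 0.51, and ATP6 of the ATP synthase by 0.59, each at an unadjusted p under 0.05. These gene values are means of probes, and those of COX2, ND2, ND1 and COX1 each include 1 probe with a high and a low level, described below. The median over the probes was 0.75 for COX2, 0.60 for ND2, 0.46 for ND1 and 0.47 for COX1. The nuclear genes of oxidative phosphorylation had a median of 0.01 over 80 genes, and 4 of them were higher and 9 lower at an unadjusted p under 0.05 (4.52% and 3.88% of all genes), with ATP5I of the ATP synthase at -0.74.

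The size of the mitochondrial differences depended on the probe. At 4 probes, 1 each of COX1, ND2, COX2 and ND1, the pigs fell into a high and a low level, separated by a gap of 3.17 to 4.11 on the log2 scale. Each is shown with an overlapping probe of the same transcript that gave a smaller difference, and the capitals mark the run of bases shared by the pair.
COX1 A_72_P762153: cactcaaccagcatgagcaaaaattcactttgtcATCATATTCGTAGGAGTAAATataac
COX1 A_72_P721538: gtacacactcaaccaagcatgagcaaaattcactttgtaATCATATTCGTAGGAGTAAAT
ND2 A_72_P719508: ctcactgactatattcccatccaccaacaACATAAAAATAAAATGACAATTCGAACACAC
ND2 A_72_P727968: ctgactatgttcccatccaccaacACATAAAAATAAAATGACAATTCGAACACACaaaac
COX2 A_72_P746371: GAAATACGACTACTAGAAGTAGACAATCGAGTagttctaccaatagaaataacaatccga
COX2 A_72_P751248: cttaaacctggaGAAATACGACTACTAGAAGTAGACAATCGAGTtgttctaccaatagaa
ND1 A_72_P745561: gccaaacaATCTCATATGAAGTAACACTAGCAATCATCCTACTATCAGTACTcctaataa
ND1 A_72_P739924: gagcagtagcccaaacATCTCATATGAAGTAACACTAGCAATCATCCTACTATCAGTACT

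At COX1 A_72_P762153, F1 HS pigs read 12.64, 13.20 and 13.67, and LW HS pigs read 7.14, 8.49 and 12.91. All 6 F1 HS pigs were at the high level together with LW HS replicates 2 and 3, and the other 4 LW HS pigs were at the low level. The same 2 LW pigs were high at all 4 probes, so the log2 differences of 3.62 ± 1.002 (COX1), 2.84 ± 0.82 (ND2), 2.62 ± 0.93 (COX2) and 2.62 ± 0.77 (ND1), each with its SE, reflect how many pigs of a group were at each level (adjusted p = 0.529 to 0.600 by limma). The levels were also seen in TN pigs, which were relatives of the HS pigs and so not a separate sample. All 6 F1 TN pigs were above the gap at each of the 4 probes, against 2 of 6 LW TN, 1 of 6 CR HS and 1 of 5 CR TN pigs. On slide 2, where both LW pigs were at the high level, the COX1 difference was 0.21, and on the other 3 shared slides it was 4.57 to 6.06.

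The overlapping probes gave smaller differences, at 0.68 for COX1, 1.37 for ND2, 0.75 for COX2 and 1.29 for ND1. The COX1 partner read 14.53 to 15.66 in LW HS pigs and 15.21 to 16.15 in F1 HS pigs, without a gap between the LW pigs. The probes of a pair read the same transcript, and they differed unequally between breeds. What separates the levels was not tested.

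**Figure D2:**
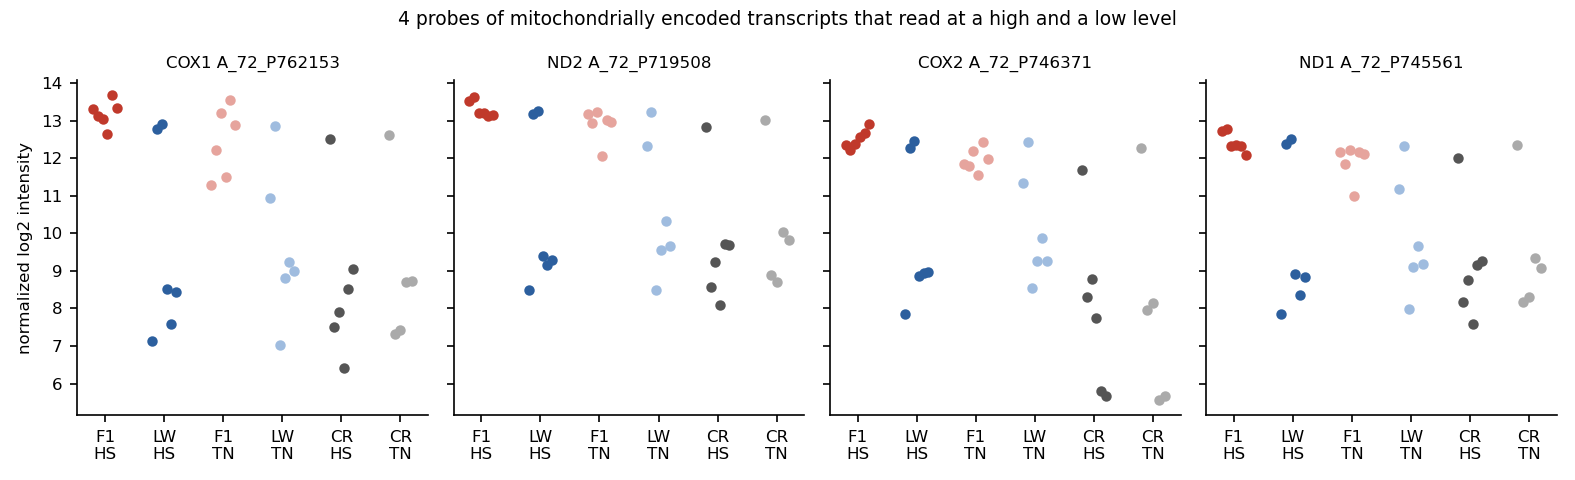
Normalized log2 intensity of 4 mitochondrial probes in all 35 pigs by breed (F1, LW, CR) and climate (HS, TN), each point 1 pig. All F1 pigs of both climates are at the high level, with 2 pigs of each LW group and 1 of each CR group.

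Across the array, 25 of 39072 probes had such a gap of at least 2 log2 units between HS pigs, with 2 or more pigs on each side. More F1 than LW pigs were above the gap at 18 of them and fewer at 6. Several of these probes share a gene, bases or the same split of pigs, so the counts are not separate observations. Among the 6, the PGM1 probes and a probe sharing bases with them had 0 F1 and 2 LW pigs above the gap in each climate. LOC100519082 and a copy of its 60 bases had 3 F1 against 1 LW pig above the gap. Besides these and the mitochondrial probes, uneven ones were those of SELENOF and HLA-E, described with their families. The unnamed transcripts TC526355 (6 F1 against 2 LW pigs above the gap), TC550996 and TC540974 (6 against 3 each) were also uneven. FHL1, a LIM-domain protein, had 4 such probes, each with 6 F1 and 3 LW HS pigs above the gap and with 3 of 6 pigs above it in both TN groups. Its 16 probes had positive differences in HS pigs without exception (median 1.05), 5 of them at an unadjusted p under 0.05, and a median of 0.11 in TN pigs. The probe A_72_P003256, which the files describe as platelet factor 4, had the same split in these 4 groups. It read 10.40, 11.12 and 12.40 in F1 HS pigs and 6.04, 9.25 and 11.64 in LW HS pigs (log2 difference 2.07 ± 1.01, SE, adjusted p = 0.606 by limma). The part of platelets in the FHL1 values was not tested.

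SELENOF encodes a selenoprotein of the endoplasmic reticulum. The probe CUST_56_PI427286967 read 4.83, 7.82 and 8.29 in F1 HS pigs and 4.80, 4.92 and 5.25 in LW HS pigs. The signal exceeded background clearly on 4 of 6 F1 HS arrays and 0 LW HS arrays (fitted difference of the means 2.05 ± 0.47, SE, adjusted p = 0.280 by limma). No bound of the fold is given, because 2 F1 HS pigs were not clearly above background either. F1 pigs were of 2 kinds, 4 at the level of the CR pigs and 2 at that of the LW pigs. In TN conditions 3 of 6 F1 and 0 of 6 LW pigs were above the gap, and all 11 CR pigs were above it. CR HS pigs read 7.20 to 8.57. The other 5 SELENOF probes differed by -0.11 to 0.22 in HS pigs. One of them, shown beside it with the 21 shared bases in capitals, read 9.75 to 10.48 in F1 HS and 10.16 to 10.52 in LW HS pigs, far above background in every pig.
SELENOF CUST_56_PI427286967: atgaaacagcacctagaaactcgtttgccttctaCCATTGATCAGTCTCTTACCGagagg
SELENOF A_72_P562884: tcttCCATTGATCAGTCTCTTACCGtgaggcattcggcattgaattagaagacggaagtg

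Class I chains of the SLA were higher in F1 HS pigs at most probes and lower in F1 TN pigs, and 0 of 28 probes were detected by limma (6 higher and 2 lower at an unadjusted p under 0.05). In HS pigs 23 of 28 probes (82.1%) had a positive difference, with a median of 0.30, and in TN pigs 3 of 28 (10.7%) with a median of -0.33. B2M, the light chain of all class I molecules, was positive at 9 of 9 probes in HS pigs (0.22 to 0.37) and at 0 of 9 in TN pigs (median -0.34). The peptide transporters TAP1 and TAP2 were positive at 7 of 8 probes in HS pigs and 1 of 8 in TN pigs. Class II chains had 29 of 34 positive probes in HS pigs (median 0.12) and 5 of 34 in TN pigs (median -0.15). Against this, all probes were positive in 52.2% under HS and 43.3% in TN. Probes of these genes share sequence, so their counts are not separate observations.

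Single class I probes differed far more than the rest. SLA-5 A_72_P414498 read 9.96, 11.19 and 11.97 in F1 HS pigs and 5.86, 7.47 and 10.61 in LW HS pigs, and 4 of 6 F1 pigs lay above every LW pig (log2 difference 3.44 ± 0.86, SE, adjusted p = 0.368 by limma). The difference was 0.03 in TN pigs, where F1 pigs ranged from 5.80 to 11.75. The other SLA-5 probe gave 0.32. SLA-1 A_72_P124686 read 7.54, 9.35 and 10.09 in F1 HS pigs and 6.85, 7.52 and 8.40 in LW HS pigs (1.56 ± 0.35, SE, adjusted p = 0.280 by limma), with 0.74 in TN pigs, while the other 6 SLA-1 probes ranged from -0.49 to 0.58. The probe named HLA-E in the files went the other way, at 6.01, 6.44 and 10.11 in F1 HS pigs and 9.17, 10.499 and 10.81 in LW HS pigs (-2.96 ± 0.71, SE, adjusted p = 0.348 by limma). There 5 of 6 F1 pigs lay below every LW pig, and the difference in TN pigs was -1.23. TAP2 A_72_P013781 also went against its family, with F1 HS pigs between 9.79 and 11.29 and LW HS pigs between 11.33 and 11.80. The sequences of the 3 heavy-chain probes are shown because class I genes resemble one another and a heading such as HLA-E is only the name in the files. The capitals in SLA-1 mark a run shared with a probe of LOC100514058, where the difference was 0.07.
SLA-5 A_72_P414498: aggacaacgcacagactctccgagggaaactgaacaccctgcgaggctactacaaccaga
SLA-1 A_72_P124686: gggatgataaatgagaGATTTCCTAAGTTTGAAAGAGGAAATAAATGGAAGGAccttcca
LOC100514058 A_72_P196972: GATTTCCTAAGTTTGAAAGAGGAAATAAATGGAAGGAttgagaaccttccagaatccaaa
HLA-E O10747: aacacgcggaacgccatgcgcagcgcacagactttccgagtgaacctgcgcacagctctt

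**Figure D3:**
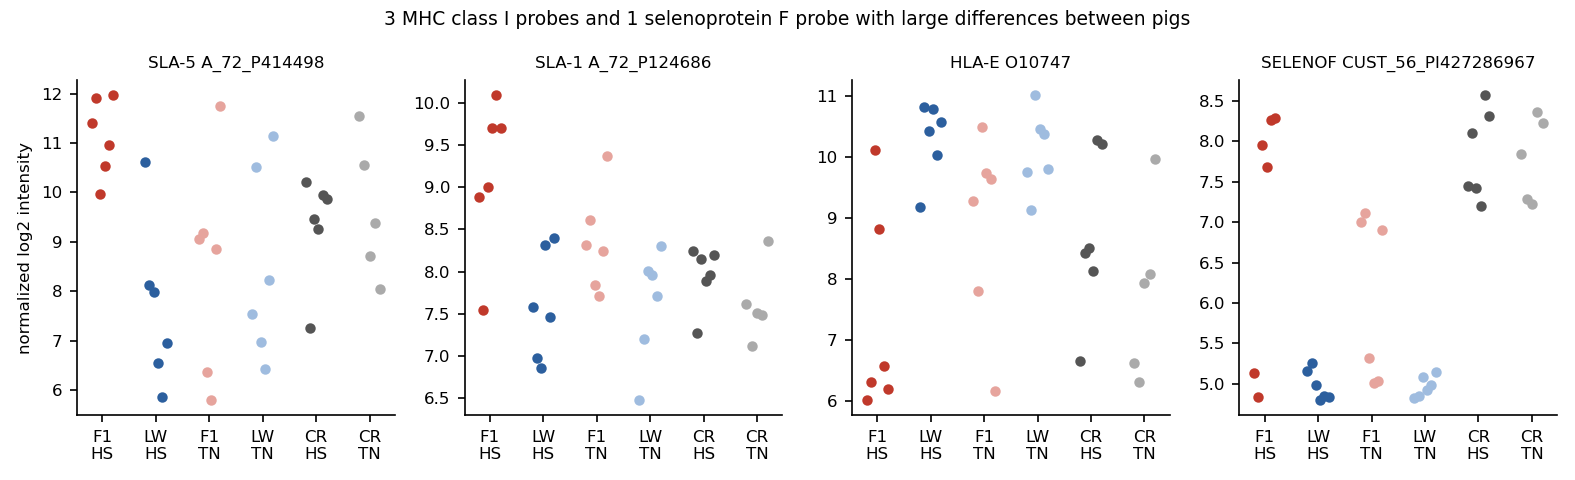
Normalized log2 intensity of 3 class I probes and 1 SELENOF probe in all 35 pigs by breed and climate, each point 1 pig and each panel with its own scale. F1 HS pigs are mostly high at SLA-5 and SLA-1 and mostly low at HLA-E, and at each of these they overlap LW HS pigs. At SELENOF 4 of 6 F1 HS pigs share the level of the CR pigs while all LW pigs are low.

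Gene lists were then described by the number of their genes at an unadjusted p under 0.05 and their median difference, beside 4.52% of all genes higher, 3.88% lower, 52.3% positive and a median of 0.01 over 11418 genes. No gene of the 37 lists was detected by limma after adjustment. The lowest median was that of the erythroid list (-0.40). Of its 41 genes 36 were negative, 9 of them at an unadjusted p under 0.05, and 0 were higher at that level. HBE1, an embryonic-type globin, read 9.60, 12.42 and 13.18 in F1 HS pigs and 12.66, 13.45 and 13.89 in LW HS pigs (-1.48 ± 0.52, SE). ALAD of haem synthesis differed by -1.06, the blood group gene RHCE by -1.50, CA1 by -1.27 and AHSP, the chaperone of alpha globin, by -0.50. HBB itself, near the upper end of the array's range, differed by -0.05. In TN pigs 36 of the 41 genes were positive (median 0.23). The erythroid mean by pig was 8.57 to 9.96 in F1 HS and 9.46 to 10.17 in LW HS pigs (exact permutation p = 0.0714, adjusted p = 0.214). PRDX2, an antioxidant enzyme abundant in red cells, lay with these genes at -0.87, while PRDX1 differed by 0.45 (adjusted p = 0.484 by limma).

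Platelet genes lay on the other side, with 12 of 18 positive, 5 at an unadjusted p under 0.05 and a median of 0.31. GNG11 differed by 1.27 ± 0.54 (SE), the chemokine PPBP by 1.38, SPARC by 0.81 and TUBB1, the platelet tubulin, by 0.65. Of the 18 genes 6 were negative, among them THBS1 (-0.27) and the integrin chain ITGA2B (-0.16 ± 0.51, SE), and GP9 of the platelet surface was at 0.00 ± 0.17 (SE). In TN pigs 17 of 18 were positive (median 0.17). The platelet mean by pig overlapped widely, at 7.97 to 9.01 in F1 HS and 7.10 to 8.69 in LW HS pigs (exact permutation p = 0.214, adjusted p = 0.367). PPBP alone ranged from 5.74 to 9.24 among LW HS pigs.

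Interferon-stimulated genes, which encode antiviral effectors, were positive in 37 of 43 cases with a median of 0.20. Of these, 9 were higher and 1 was lower at an unadjusted p under 0.05. OASL read 6.80, 6.89 and 7.86 in F1 HS pigs and 5.94, 6.43 and 7.49 in LW HS pigs (0.65 ± 0.22, SE). OAS1 differed by 1.86, with LW HS pigs spread from 5.63 to 11.74. RSAD2 differed by 0.93 and IFIT3 by 0.67, and ISG12(A) went the other way (-0.98). In TN pigs 23 of 43 were positive (median 0.01).

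Lysosomal genes were positive in 41 of 60 cases with a median of 0.10, and 9 were higher and 1 lower at an unadjusted p under 0.05. LIPA, the acid lipase, differed by 0.32, the proteases CTSK and CTSB by 0.63 and 0.24, and NPC1 of cholesterol export by 0.31, whereas ATP6V1E1 of the proton pump differed by -0.91. In the cholesterol list 16 of 22 genes were positive and 3 higher at that level, namely ACAT2 (0.32), FDFT1 (0.37) and MVK (0.33). Immediate early genes had 4 of 21 higher, among them FOS (0.41) and ATF3 (0.24). The glucocorticoid list had NFKBIA (0.38) and DUSP1 (0.50).

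Chaperones, the classical products of the heat shock response, had small median differences. HSP70 and HSP110 genes had a median of 0.14 over 11 genes with 0 at an unadjusted p under 0.05, among them HSPA8 (0.30 ± 0.21, SE) and HSPH1 (0.06 ± 0.15, SE). HSP90AA1 differed by -0.002 ± 0.12 (SE), with F1 HS pigs from 11.28 to 11.60 and LW HS pigs from 11.14 to 11.77. HSP90 genes and co-chaperones had a median of 0.05 over 13 genes, HSP40 genes one of 0.03 over 28 genes, of which DNAJB11 was higher at the unadjusted level (0.26), and chaperonins one of 0.16 over 9. In TN pigs the medians of these 4 lists were -0.15, -0.12, -0.10 and -0.19. Positive genes in HS pigs numbered 8 of 11, 9 of 13, 17 of 28 and 8 of 9 in the same order, against 52.3% of all genes. The list of heat shock factors, small HSPs and BAG proteins lay lower, with a median of -0.10 and 7 of 11 genes negative. In it BAG4 (-0.50) was lower at the unadjusted level, and CRYAB differed by -0.58 ± 0.29 (SE). Its median in TN pigs was 0.21. In the unfolded protein response list CRELD2 (0.49), PDIA6 (0.41), PDIA5 (0.32) and DERL1 (0.18) were higher and SYVN1 (-0.27) and ERN1 (-0.76) lower at the unadjusted level, and the median over 24 genes was 0.01.

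Lymphocyte lists differed among themselves. The cytotoxic list had 7 of 23 genes positive and a median of -0.18, with NCR3, an activating receptor of natural killer cells, at -1.50 ± 0.48 (SE). The T cell list had 11 of 23 genes positive and a median of -0.01. Its genes went both ways, with CD3G at -0.49 and SH2D1A at -0.41 but CD8B at 0.40 and CD8A at 0.29, and CD3D (0.04) and CD3E (-0.02) differed little. The B cell list had a median of 0.10, with 13 of 21 genes positive. The 4 immunoglobulin chain genes were positive in HS pigs (median 0.34), 1 of them, IGJ (0.63), at an unadjusted p under 0.05, and negative in TN pigs (median -0.54). Neutrophil genes had a median of 0.19 with 0 of 26 at an unadjusted p under 0.05, and the mean by pig spread from 8.84 to 11.33 in F1 HS pigs. Of the 78 cytosolic ribosomal proteins 24 were positive, 2 were higher and 11 lower at the unadjusted level (median -0.10). When single pigs were left out, the medians of the erythroid, platelet, interferon and mitochondrial lists kept their signs (-0.52 to -0.23, 0.10 to 0.37, 0.14 to 0.33 and 0.42 to 0.58).

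**Figure D4:**
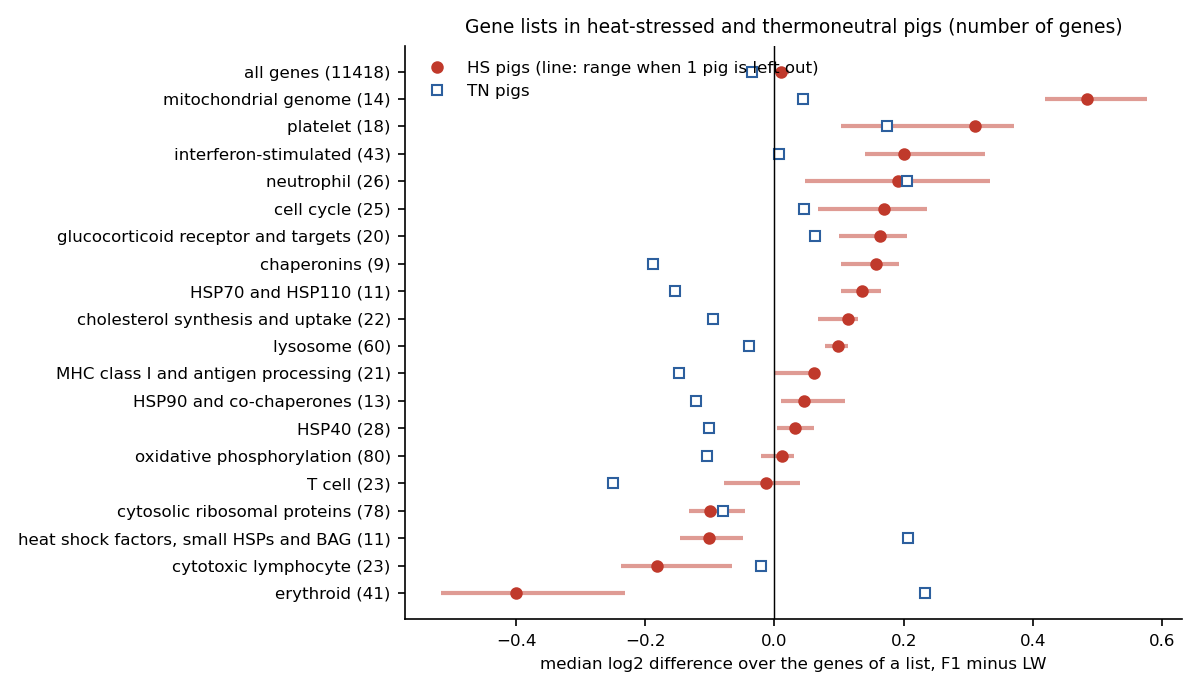
Median log2 difference of F1 minus LW pigs over the genes of a list, in HS pigs (circles, with lines for the range when 1 HS pig at a time is left out) and in TN pigs (squares). The erythroid list has the lowest HS median and the mitochondrial genome list the highest, and for both the TN median lies elsewhere, at 0.23 and 0.04.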

How the data were processed

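Whole-blood RNA was hybridised to custom porcine Agilent arrays of 60-base probes, 1 per pig. The authors deposited a table of log2 values, made from the median spot intensity by quantile normalization and a filter on expressed probes (39072 of 60305 probes). Per the file headers, the deposited scanner intensity was read with Feature Extraction 10.10.1.1. Median intensities normalized again here had r = 0.99997 with the deposited log2 values across probes. Groups came from the labels. All 35 arrays were fitted with limma 3.58.1 in R 4.3.3 as 6 group means, with F1 HS minus LW HS as the contrast, two-sided and with Benjamini-Hochberg adjustment. Pen, slaughter day and parents, which the study fitted, had no labels. Probes were named from the scanner files and a table of pig gene symbols, and 17728 had no gene name. A gene was the mean of its probes. No genome was used, so no coordinates are given. Results of some genes that met the naming rule below are not reported here.

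Named probes were those past the threshold, then the next by p with a gene name up to 12 in each direction, the gene of smallest p in a list, and the 8 most uneven probes with a gap. Other genes of the lists were chosen after their values were seen. The members and lists were chosen with earlier results of these data known. Where a probe was not well above background on any array of a group, a fold, where given, is a bound for the group means. For it, each array of that group entered at its dimmest clearly detected probe or at the probe's own value, whichever was brighter. Array measures were compared by exact permutation over 924 splits. The number of arrays limits the precision. Alternatives were other normalizations, backgrounds and filters, slide as a block, array weights, a robust trend, erythroid and mitochondrial covariates, an additive model, only the 12 arrays, and each pig left out. The fit was tested on simulated data.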

Additional observations from a re-analysis of the deposited data

Results flagged for a closer look

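In 5 of 82 groups of values examined, 1 pig stood apart from the other 5 by more than Dixon's criterion at 95% allows, and chance gives about 1 in 20. At OTTSUST00000001126, the lowest F1 HS pig was at 5.40 against 5.92 in the next. At UTP18 the lowest F1 HS pig was at 7.10 against 7.76. A single LW HS pig was high at VMO1 (6.56 against 5.69), and 1 was low at OAZ3 (5.79 against 7.88). The share of signal in the 4 globin spots was 0.396% in 1 LW HS pig against at most 0.274% in the others.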

How the results depend on the processing

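No paired analysis was run, because F1 and LW pigs were different animals that never shared a pen or a litter. The labels carry no replicate numbers, and those used here follow the order of the sample records. The 3 probes detected between F1 HS and LW HS pigs became 0 with only the 12 HS arrays in the fit (4553 at an unadjusted p under 0.05 by limma), 0 with slide as a block (4466), 80 with array weights (62 higher and 18 lower), 8 with the erythroid mean as a covariate and 10 in the additive model of both climates. With single pigs left out the count was 0 to 5. It was 0 without F1 HS replicate 5 or 6 or LW HS replicate 6, 1 without LW HS replicate 2, 3 or 4, and 5 without LW HS replicate 1 or F1 HS replicate 2 or 4. The other settings gave 2 to 4, among them 2 with the mitochondrial mean as a covariate, a setting chosen after seeing the data. In TN pigs, scaling on the 75th percentile gave 1 probe in place of 0. For the interaction, that scaling gave 1, and array weights gave 3902 (1304 positive and 2598 negative). The cause of these shifts was not tested. Of 1248 alternative values of 52 probes, 0 changed sign, 27 lost the threshold and 32 gained it. The counts of list genes and of array measures past the threshold were 0 in each setting run for them.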
